A study of Mus musculus with 6 samples.

Results

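Chemokines are small secreted proteins that steer leukocytes, and 9 of their genes (Cxcl1, Cxcl2, Cxcl9, Cxcl10, Cxcl12, Cxcl16, Ccl2, Ccl5 and Ccl7) are described here in endothelial cells of the mouse lung. They were taken by symbol as a list of homeostatic, inflammatory and interferon-induced chemokines, 9 of the 24520 gene identifiers in the deposited table, and all 9 were found. RNA came from wild-type (wt) endothelial cells that had been sorted by FACS, with 3 libraries from lungs of mice aged 18 months and 3 from mice aged 8 months. The series is about DNMT3A, a DNA methyltransferase, and endothelial enhancers, and these libraries set an older against a younger age. Strain, sex and the markers of the sort were not given in the sources used here. Whether each library is a separate mouse was not stated either, so the p-values cover the spread between libraries, which may be technical.

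CXC and CC chemokines are named for the spacing of their first cysteines. They act through receptors coupled to G proteins on leukocytes, and the endothelium displays them to rolling cells on heparan sulfate at its surface. Atypical receptors bind chemokines without the usual signal and clear them. In the lung, Cxcl12 is a homeostatic chemokine, Cxcl1, Cxcl2, Ccl2 and Ccl7 are induced by inflammatory cytokines through NF-kB, and Cxcl9 and Cxcl10 are induced by interferons.

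The RefSeq table of promoters (GRCm38.p6) held 5 of the 9 genes by symbol, namely Cxcl1, Cxcl2, Cxcl9, Cxcl10 and Cxcl12. The 250 bases up to the start of the neighbouring pairs Cxcl1 with Cxcl2 and Cxcl9 with Cxcl10 are printed because the genes of the first pair differed in level and those of the second lay above the 8-month range together. Capitals mark matches on either strand to the kappaB consensus, the site named after NF-kB, or to the core of the interferon-stimulated response element, which is GAAA, any 2 bases and GAAA again.
Cxcl1 promoter, chr5:90890995-90891244, plus strand: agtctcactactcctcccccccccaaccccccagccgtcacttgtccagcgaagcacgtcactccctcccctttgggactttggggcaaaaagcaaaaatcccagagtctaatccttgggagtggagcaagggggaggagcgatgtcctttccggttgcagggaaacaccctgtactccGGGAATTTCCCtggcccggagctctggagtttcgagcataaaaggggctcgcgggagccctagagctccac
Cxcl2 promoter, chr5:90903649-90903898, plus strand: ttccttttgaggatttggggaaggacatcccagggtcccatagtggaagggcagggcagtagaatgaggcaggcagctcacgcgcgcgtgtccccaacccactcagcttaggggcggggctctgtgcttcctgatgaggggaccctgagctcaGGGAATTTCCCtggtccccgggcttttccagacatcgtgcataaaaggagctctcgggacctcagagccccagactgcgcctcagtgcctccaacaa
Cxcl9 promoter, chr5:92328080-92328329, minus strand: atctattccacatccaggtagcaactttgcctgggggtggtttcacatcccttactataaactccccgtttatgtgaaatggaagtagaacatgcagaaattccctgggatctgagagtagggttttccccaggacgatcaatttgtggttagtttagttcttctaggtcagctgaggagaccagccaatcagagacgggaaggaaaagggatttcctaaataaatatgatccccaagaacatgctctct
Cxcl10 promoter, chr5:92348890-92349139, minus strand: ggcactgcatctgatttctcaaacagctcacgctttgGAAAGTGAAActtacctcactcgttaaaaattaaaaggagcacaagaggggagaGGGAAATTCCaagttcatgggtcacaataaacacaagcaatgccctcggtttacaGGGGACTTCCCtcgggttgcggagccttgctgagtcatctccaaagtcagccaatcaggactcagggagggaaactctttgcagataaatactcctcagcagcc

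Cxcl1 and Cxcl2 share the stretch GGGAATTTCC, which matched the kappaB consensus and began 71 bases before the start in Cxcl1 and 97 bases before it in Cxcl2. Cxcl10 held GAAAGTGAAA, a match to the response element core, from 213 bases before the start, and kappaB matches GGGAAATTCC from 159 and GGGGACTTCC from 104. The last of these overlapped another kappaB match, GGGACTTCCC, from 103. The windows of Cxcl9 and Cxcl12 held neither motif. A gamma-activated site, TTCNNNGAA, was searched on both strands as well and matched 0 of the 5 windows. Among the same 250 bases of all 32851 promoters in the table, 7.25% matched the kappaB consensus, 2.98% the response element core and 7.02% the gamma-activated site. These matches describe letters in a window and say nothing of whether a factor binds there.

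Values are TPM, scaled to transcript length and to the library total, so levels can be compared between genes. The deposited values summed to between 869315 and 876126 TPM per library, TPM keep no read depth, and no counting error can be given. The 10 endothelial markers summed to 12353 to 13165 TPM in 18-month libraries and 13351 to 14713 TPM in 8-month libraries. RNA of other cell types was present. The 8 epithelial markers summed to 9450 to 19208 TPM at 18 months, against 10971 to 20122 TPM at 8 months, and the 16 monocyte, macrophage and dendritic cell markers to 1057 to 1951 TPM, against 762 to 1964 TPM at 8 months. The third 8-month library stood apart with the highest sums of the T and NK cell, B cell, platelet and epithelial lists. By little it also had the highest sum of the monocyte, macrophage and dendritic cell list. Values without this library are given for Cxcl2, Ccl5 and Ccl6.

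None of the tested chemokine genes passed between the ages. In 3 of the 7 tested genes the ages did not overlap, as in 18.7% of all tested genes. Cxcl10 lay above the 8-month range in every 18-month library, and Cxcl16 and Ccl2 below it. Cxcl9 also lay above and Ccl7 below, but both averaged under 1 TPM, where no share over all genes is given. Of the 12748 genes with a mean TPM of 1 or more, 3 passed (0.0235%, limma's moderated test on log2(TPM + 1), Benjamini-Hochberg adjusted p under 0.05), 1 as higher (0.00784%) and 2 as lower (0.0157%) at 18 months. Among the chemokine genes 7 were tested and 0 passed in either direction, with a smallest limma adjusted p of 0.19, and Ccl7 and Cxcl9, with mean levels under 1 TPM, were not tested. An unadjusted p under 0.05 was reached by 3 of the 7, against 13.4% of all tested genes, with 1 of the 7 higher (3.45% of all) and 2 lower (9.99% of all). The ages did not overlap in 3 of the 7 tested members, against 18.7% of all tested genes, with 1 above (4.48% of all) and 2 below (14.2% of all). A log2 difference above 0 was found in 5 of the 7 (33.8% of all) and one below 0 in 2 of the 7 (66.2% of all). The median over the 7 was 0.39, beside -0.079 over all tested genes, on a scale that understates differences of low genes.

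**Figure D1:**
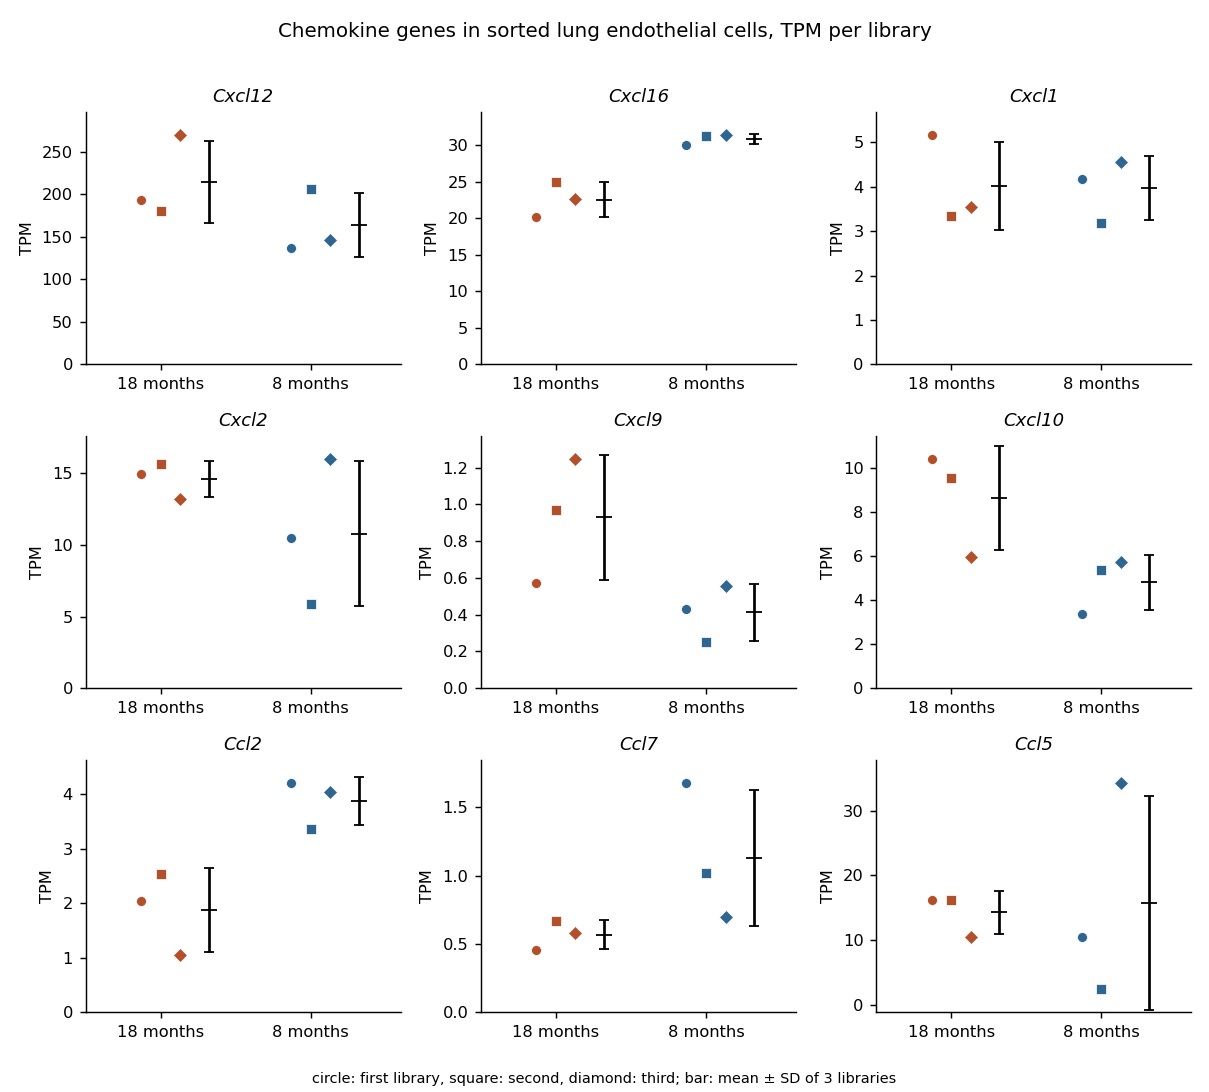
TPM of the 9 chemokine genes in each library (points; vertical axes differ between genes), with 18 months left of 8 months and the mean ± SD of 3 libraries as a bar. Cxcl9 and Cxcl10 show every 18-month library above the 8-month libraries and Cxcl16, Ccl2 and Ccl7 every one below, while Ccl5 ranges from 2.38 to 34.3 TPM within the 8-month group alone.

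Cxcl12 was the most abundant of the 9, with a mean level of 189 TPM over the 6 libraries, above 93.98% of tested genes. Mean levels were 26.7 TPM for Cxcl16, 14.99 for Ccl5, 12.7 for Cxcl2, 6.74 for Cxcl10, 3.999 for Cxcl1, 2.88 for Ccl2, 0.85 for Ccl7 and 0.671 TPM for Cxcl9. In this order Cxcl12 lay above Cxcl16, Cxcl2 above Cxcl10 and Ccl2 above Ccl7 in 6 of 6 libraries, and Cxcl16 above Ccl5 and Cxcl10 above Cxcl1 in 5 of 6. Other neighbours traded places. Ccl5 lay above Cxcl2 in 3 of 6 libraries, Cxcl1 above Ccl2 in 4 of 6 and Ccl7 above Cxcl9 in 3 of 6, which were 0 of 3 libraries at 18 months and 3 of 3 at 8 months. Cxcl12 made up 73.4, 70.9 and 82.1% of the summed TPM of the 9 genes in 18-month libraries and 67.9, 79.7 and 60.1% in 8-month libraries. The 8 other genes summed to 69.96, 73.8 and 58.6 TPM in the older and 64.9, 52.6 and 97.2 TPM in the younger libraries, with overlap in both measures.

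Cxcl12 (ENSMUSG00000061353, chromosome 6, 117168535 to 117181367, plus strand, GRCm38) encodes the chemokine that retains and homes leukocytes and progenitors through Cxcr4. It stood at 193, 180.1 and 269 TPM in the 18-month libraries, against 137, 206 and 146 TPM in the 8-month libraries. The ages overlapped, because the second 8-month library exceeded the first and second 18-month libraries. Levels averaged 214 ± 48.1 TPM in older and 163 ± 37.6 TPM in younger libraries (SD, n = 3 each). The log2 difference was 0.39 (95% interval -0.071 to 0.85; limma adjusted p = 0.46). Without the third 18-month library, the highest of the 6, it was 0.21. Cxcr4, its signalling receptor, stood at 6.81, 4.12 and 4.04 TPM in 18-month and 3.25, 10.1 and 5.61 TPM in 8-month libraries, with overlap. Ackr3, the atypical receptor that takes up Cxcl12, was far more abundant, at 234, 156 and 159.9 TPM in the 18-month libraries, against 279, 287 and 254 TPM in the 8-month libraries. No 18-month library reached the 8-month range of Ackr3, whose log2 difference was -0.60 (SE 0.16; limma adjusted p = 0.19). Marker sums of vessel types differed beside these values, and in bulk RNA fewer cells of a type and less RNA per cell cannot be told apart. General capillary markers summed to 3790 to 4027 TPM in older and 3179 to 3777 TPM in younger libraries, and arterial markers to 997 to 1105 TPM and 696 to 935 TPM in the same order of ages. Single markers differed, with log2 differences above 0 in 4 of 6 general capillary and 6 of 8 arterial markers (33.8% of all tested genes). Arterial Gja4 averaged 558 TPM in older and 366.5 TPM in younger libraries. Arterial Fbln5 lay the other way without overlap, at 5.36 and 18.1 TPM, as did capillary Plvap with overlap, at 152 and 285 TPM. Aerocyte markers summed lower in older libraries, at 3743 to 4199 TPM, against 4598 to 5977 TPM in younger libraries. Their log2 differences lay below 0 in 8 of 8 (66.2% of all tested genes). The part of these vessel types in the Cxcl12 and Ackr3 values was not tested.

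Cxcl1 and Cxcl2, which draw neutrophils through Cxcr2, lie 10.8 kb apart. Cxcl1 (ENSMUSG00000029380, chromosome 5, 90891241 to 90893115, plus strand) stood at 5.16, 3.35 and 3.56 TPM in the 18-month libraries, against 4.18, 3.18 and 4.57 TPM in the 8-month libraries. The ages covered nearly the same range, and the log2 difference was 0.0058 (95% interval -0.46 to 0.48; limma adjusted p = 0.995). Cxcl2 (ENSMUSG00000058427, chromosome 5, 90903871 to 90905938, plus strand) stood at 14.96, 15.6 and 13.2 TPM in the 18-month libraries, against 10.5, 5.86 and 15.98 TPM in the 8-month libraries. The third 8-month library was the highest of the 6 and the second the lowest, so that the 18-month values lay inside the 8-month range. The highest library was 1.19 times the lowest at 18 months and 2.73 times at 8 months. The log2 difference of Cxcl2 was 0.50 (95% interval -0.19 to 1.19; limma adjusted p = 0.52), 0.16 without the second 8-month library and 0.81 without the third. Of the 31-base sequences in Cxcl2 transcripts, 7.59% also occur in transcripts of Cxcl3, a near relative that lay between 0.0735 and 0.439 TPM. Cxcr2 itself stood at 13.2, 11.9 and 11.7 TPM in 18-month and 10.3, 14.3 and 11.7 TPM in 8-month libraries. The ages overlapped there too. Neutrophil markers differed among themselves. Ly6g was listed at 0 in all 6 libraries, while S100a8, a calcium-binding protein of neutrophils, stood at 1.63, 3.57 and 1.35 TPM in 18-month and 1.17, 0.327 and 1.04 TPM in 8-month libraries, and its partner S100a9 at 0.206, 1.55 and 0.634 TPM in 18-month libraries and was listed at 0 in all 8-month libraries. Both lay higher at 18 months without overlap. Ngp, of the same list, lay lower without overlap, at 0.219, 0.12 and 0.148 TPM in 18-month and 0.498, 0.575 and 0.368 TPM in 8-month libraries. Of the 10 neutrophil markers 2 thus lay above the 8-month range and 1 below it. Only 2 of the 10, S100a8 and Cxcr2, were tested. Of all tested genes 4.48% lay above the 8-month range and 14.2% below it. S100a9 and Ngp averaged under 1 TPM, where no share over all genes is given. The part of neutrophil markers in the Cxcl2 values was not tested. The sum of the 10 markers, most of it Cxcr2, was 15.2 to 18.3 TPM in older and 13.3 to 16.9 TPM in younger libraries.

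Genes induced through NF-kB were read from a list of 18. Of the 17 tested, 0 passed as higher and 0 as lower. A log2 difference above 0 was found in 9 and one below 0 in 8, against 33.8% and 66.2% of all tested genes. The median was 0.029, beside -0.079 over all tested genes. Icam1, an adhesion molecule for leukocytes, stood at 436, 412 and 439.7 TPM in the 18-month libraries, against 462, 554 and 538 TPM in the 8-month libraries. All 18-month libraries lay below the 8-month range (log2 difference -0.27, limma adjusted p = 0.31). The adhesion gene Selp averaged 4.82 ± 2.71 TPM in older and 14.2 ± 8.86 TPM in younger libraries, and Vcam1 averaged 47.1 ± 10.5 TPM and 92.3 ± 53.98 TPM in the same order. Ptgs2, an enzyme of prostaglandin synthesis, averaged 4.96 ± 4.88 TPM in older and 15.3 ± 13.4 TPM in younger libraries. These 3 genes overlapped between the ages, with their highest values in the second 8-month library, where Cxcl2 was lowest. Selp is also 1 of the 8 venous markers, whose sum was highest in that library too, at 1043 TPM. The part of venous cells in these values was not tested. Of 12 tested immediate early genes, which respond fast to stimuli, 0 passed. Log2 differences lay above 0 in 5 of them (33.8% of all tested genes) and below 0 in 7 (66.2% of all), with a median of -0.47. Dusp1, a phosphatase that curbs MAP kinases, stood at 259, 99.6 and 146 TPM in the 18-month libraries, against 282, 441 and 298 TPM in the 8-month libraries, without overlap (limma adjusted p = 0.21). The transcription factor genes Junb, Jun and Nr4a1 overlapped, with log2 differences of -1.22, -1.09 and -0.79. The list summed to 4319, 2240 and 3239 TPM in older and 3327, 4243 and 3438 TPM in younger libraries, and its part in the chemokine values was not tested.

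Cxcl9 and Cxcl10 attract activated T cells and NK cells through Cxcr3 and lie 18.6 kb apart. Cxcl10 (ENSMUSG00000034855, chromosome 5, 92346638 to 92348889, minus strand) stood at 10.4, 9.55 and 5.99 TPM in the 18-month libraries, against 3.38, 5.36 and 5.72 TPM in the 8-month libraries. The ages did not overlap, but the third 18-month library lay close to the highest 8-month library. Levels averaged 8.65 ± 2.34 TPM in older and 4.82 ± 1.26 TPM in younger libraries (SD, n = 3 each), 1.795-fold higher at 18 months. The log2 difference was 0.72 (95% interval 0.15 to 1.29; limma adjusted p = 0.26). Cxcl9 (ENSMUSG00000029417, chromosome 5, 92321347 to 92328079, minus strand) stood at 0.572, 0.969 and 1.25 TPM in the 18-month libraries, against 0.429, 0.252 and 0.556 TPM in the 8-month libraries. All 18-month libraries lay above the 8-month range, the lowest of them by little. With no filter on low values its log2 difference was 0.44 (limma adjusted p = 0.37). The pair summed to 10.98, 10.5 and 7.23 TPM in older and 3.81, 5.61 and 6.28 TPM in younger libraries. Cxcl11, a ligand of the same receptor, stood at 2.03, 1.66 and 1.88 TPM in 18-month and 1.398, 1.37 and 1.51 TPM in 8-month libraries, without overlap (log2 difference 0.23, limma adjusted p = 0.61). Cxcr3 lay at or below 0.554 TPM in the 6 libraries. The exons of Cxcl10 share 133 bases with Art3 on the opposite strand, and 4.47% of its 31-base sequences occur in Art3. Art3 lay the other way, at 2.02, 1.91 and 1.504 TPM in the 18-month libraries, against 3.74, 3.47 and 3.55 TPM in the 8-month libraries.

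Interferon-gamma response genes were read from a list of 21. Of the 20 tested, 0 passed in either direction, 18 had a log2 difference above 0 (33.8% of all tested genes), and the median was 0.64. The 18-month libraries all lay above the 8-month range in 9 of the 20 and all below it in 1, against 4.48% and 14.2% of all tested genes. Ubd, a ubiquitin-like modifier, stood at 7.55, 19.1 and 6.801 TPM in the 18-month libraries, against 0.0808, 1.21 and 0.191 TPM in the 8-month libraries. Every older library lay above every younger one (log2 difference 2.96, limma adjusted p = 0.079). Gbp4, a GTPase of cell defence, stood at 169.6, 412 and 162 TPM in the 18-month libraries, against 119, 86.1 and 107 TPM in the 8-month libraries (log2 difference 1.11, limma adjusted p = 0.22). Ciita, the activator of MHC class II genes, stood at 22.3, 51.3 and 24.8 TPM in the 18-month libraries, against 21.9, 9.95 and 14.5 TPM in the 8-month libraries (log2 difference 1.004, limma adjusted p = 0.29). Neither gene overlapped between the ages, and both were highest in the second 18-month library, without which the log2 differences were 0.67 for Gbp4 and 0.64 for Ciita. Ifngr2, a receptor chain for interferon-gamma, lay lower, at 97.9, 66.4 and 84.1 TPM in the 18-month libraries, against 108, 119 and 101 TPM in the 8-month libraries (log2 difference -0.41, -0.26 without the second 18-month library; limma adjusted p = 0.30). The list summed to 2946, 5501 and 3181 TPM in older and 2809, 2508 and 2520 TPM in younger libraries. The second 18-month library had its highest sum, whereas Cxcl10 peaked in the first 18-month library and Cxcl9 in the third. Monocyte, macrophage and dendritic cell markers had log2 differences above 0 in 12 of 12 tested genes (33.8% of all tested genes), with a median of 0.61, and 0 passed. The ages did not overlap in 1 of the 12, which lay above (4.48% of all). Of the 4 not tested, with means under 1 TPM, C1qa, Ccr2 and Flt3 averaged lower at 18 months and Csf1r higher. They summed to 1695, 1951 and 1057 TPM in older and 762, 857 and 1964 TPM in younger libraries, and their part in the Cxcl9, Cxcl10 and interferon-gamma values was not tested.

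**Figure D2:**
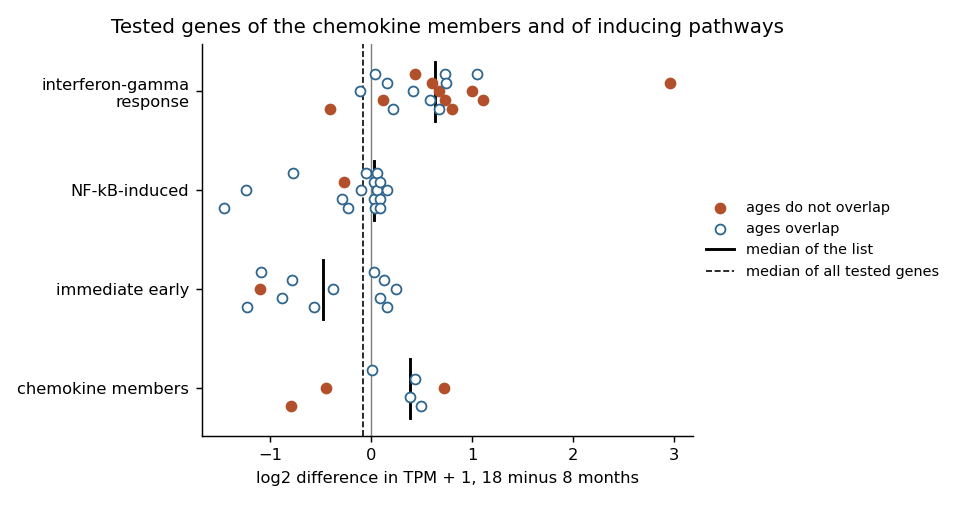
Log2 difference in TPM + 1, 18 minus 8 months, of each tested gene (points, filled where the ages did not overlap) of the chemokine members and 3 lists, with a bar at each list's median and a dashed line at the median of all tested genes. The interferon-gamma response genes lie mostly right of 0 around a median of 0.64, the NF-kB-induced genes around 0.029 and the immediate early genes around -0.47, while the members fall on both sides of 0.

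Cxcl16 (ENSMUSG00000018920, chromosome 11, 70453983 to 70459984, minus strand) encodes a chemokine made as a membrane protein, which binds Cxcr6 on T cells and also takes up oxidised lipoprotein. It stood at 20.2, 24.95 and 22.6 TPM in the 18-month libraries, against 30.03, 31.2 and 31.3 TPM in the 8-month libraries. Every 18-month library lay below the 8-month libraries, of which the highest was 1.04 times the lowest. Levels averaged 22.6 ± 2.396 TPM in older and 30.9 ± 0.719 TPM in younger libraries (SD, n = 3 each). The log2 difference was -0.44 (95% interval -0.70 to -0.18; limma adjusted p = 0.19). Zmynd15 overlaps Cxcl16 on the opposite strand by 552 exonic bases, and 18.5% of the 31-base sequences of Cxcl16 occur in it, so how reads were split between them is uncertain. Zmynd15 stood at 11.1, 13.3 and 9.37 TPM in 18-month and 6.69, 18.6 and 13.7 TPM in 8-month libraries, with overlap. Adam17, a protease that cuts membrane proteins from the cell surface, stood at 35.9, 26.98 and 34.7 TPM in the 18-month libraries, against 37.3, 41.2 and 37.2 TPM in the 8-month libraries. All older libraries lay below the younger range (log2 difference -0.25, -0.12 without the second 18-month library; limma adjusted p = 0.47). Adam10, listed with Adam17 among genes that process chemokines, overlapped between the ages. It averaged 57.1 TPM in older and 64.4 TPM in younger libraries (log2 difference -0.18, limma adjusted p = 0.61). Cxcr6 lay between 0.57 and 1.51 TPM in the 6 libraries.

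Ccl2 and Ccl7, which draw monocytes through Ccr2, lie 8.26 kb apart. Ccl2 (ENSMUSG00000035385, chromosome 11, 82035571 to 82037453, plus strand) stood at 2.05, 2.54 and 1.04 TPM in the 18-month libraries, against 4.21, 3.37 and 4.04 TPM in the 8-month libraries. No 18-month library reached the lowest 8-month library. Levels averaged 1.88 ± 0.764 TPM in older and 3.87 ± 0.443 TPM in younger libraries (SD, n = 3 each), 2.06-fold lower at 18 months. The log2 difference was -0.79 (95% interval -1.34 to -0.25; limma adjusted p = 0.21). Ccl7 (ENSMUSG00000035373, chromosome 11, 82045712 to 82047525, plus strand) stood at 0.459, 0.664 and 0.583 TPM in the 18-month libraries, against 1.68, 1.02 and 0.699 TPM in the 8-month libraries. It also lay lower at 18 months without overlap, with the third 8-month library close to the 18-month values. With no filter on low values its log2 difference was -0.42 (limma adjusted p = 0.45). The pair summed to 2.51, 3.21 and 1.63 TPM in older and 5.88, 4.39 and 4.74 TPM in younger libraries. Ccr2 lay between 0.442 and 1.51 TPM. Ackr2, the scavenger of inflammatory CC chemokines, stood at 117, 102 and 137 TPM in the 18-month libraries, against 214, 161 and 162 TPM in the 8-month libraries. All 18-month libraries lay below the 8-month range of Ackr2 (log2 difference -0.58, SE 0.15, limma adjusted p = 0.19).

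Mesenchymal and venous markers lay lower at 18 months as Ccl2 and Ccl7 did. This direction was shared by 66.2% of all tested genes and by 8 of 8 aerocyte markers. The 10 mesenchymal markers summed to 19.4 to 25.7 TPM in older and 35.6 to 54.9 TPM in younger libraries, with 8 of 8 tested genes below 0 and 0 past the threshold. Col1a1, a collagen of fibroblasts, averaged 0.39 ± 0.238 TPM in older and 1.79 ± 0.415 TPM in younger libraries. The 8 venous markers summed to 421 to 527 TPM in older and 553, 1043 and 869 TPM in younger libraries. Of these markers 8 of 8 were below 0 and 0 past the threshold. Their 8-month sum was lowest in the first library, where Ccl2 and Ccl7 together were highest, at 5.88 TPM. The part of both lists in the Ccl2 and Ccl7 values was not tested.

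**Figure D3:**
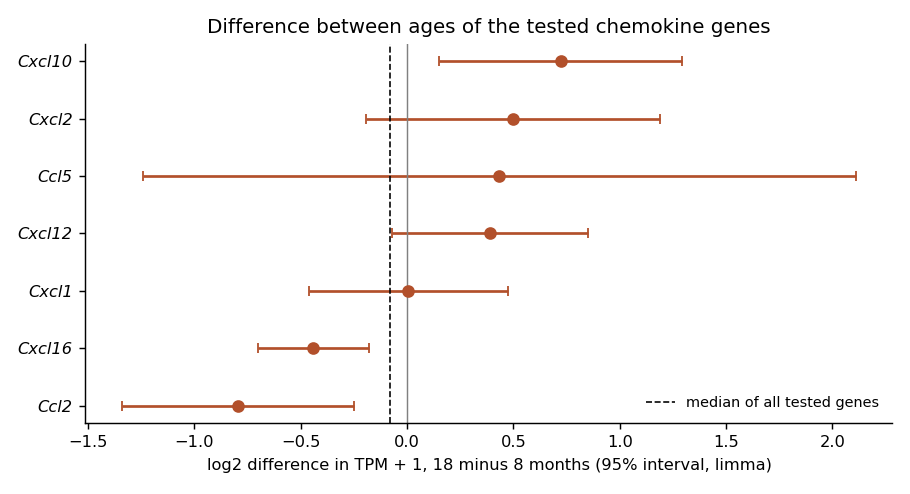
Log2 difference in TPM + 1, 18 minus 8 months, of the 7 tested chemokine genes (points) with 95% intervals from limma, and the median of all tested genes as a dashed line. The intervals of Cxcl10, Cxcl16 and Ccl2 leave out 0, that of Ccl5 runs from -1.24 to 2.11, and 0 of the 7 passed after adjustment over all genes.

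Ccl5 (ENSMUSG00000035042, chromosome 11, 83525778 to 83530518, minus strand) encodes a chemokine made by T cells, NK cells and platelets that acts on receptors such as Ccr1 and Ccr3. It stood at 16.2, 16.2 and 10.4 TPM in the 18-month libraries, against 10.5, 2.38 and 34.3 TPM in the 8-month libraries. The highest 8-month library was 14.4 times the lowest, against 1.55 times at 18 months, and the 8-month libraries enclosed all 18-month values. Levels averaged 14.3 ± 3.31 TPM in older and 15.7 ± 16.6 TPM in younger libraries (SD, n = 3 each). The log2 difference was 0.43 (95% interval -1.24 to 2.11; limma adjusted p = 0.85), opposite in sign to the difference of the mean levels. It was -0.42 without the second 8-month library and 1.27 without the third, so that 1 library set its direction. The T and NK cell, platelet and B cell lists had the same order of libraries within the 8-month group, and the neutrophil and monocyte lists did not. Within the 18-month group the T and NK cell list kept the order of Ccl5, whose first and second values were nearly equal, at 16.19 and 16.15 TPM. The epithelial list kept it there too, at 19208, 16557 and 9450 TPM, but not within the 8-month group. In 18-month libraries the platelet list was highest in the second library and the B cell list in the third, where Ccl5 was lowest. The 14 T and NK cell markers summed to 40.3, 35.2 and 27.6 TPM in older and 23.96, 19.4 and 60.2 TPM in younger libraries, with the T cell receptor chains Cd3e between 0.0471 and 0.459 TPM and Cd3d between 5.17 and 11.5 TPM, and Cd2, a T and NK cell adhesion molecule, between 4.12 and 14.7 TPM over the 6 libraries. The 6 platelet markers summed to 17.3, 29.3 and 17.2 TPM in older and 20.9, 9.84 and 49.6 TPM in younger libraries. The 6 B cell markers summed to 11.3, 9.86 and 15.3 TPM and 13.8, 12.8 and 42.8 TPM in the same order of ages, and the part of these cells in the Ccl5 values was not tested. Of the receptors, Ccr1 lay between 0.4 and 1.69 TPM, and Ccr3 was listed at 0 in all 6 libraries.

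**Figure D4:**
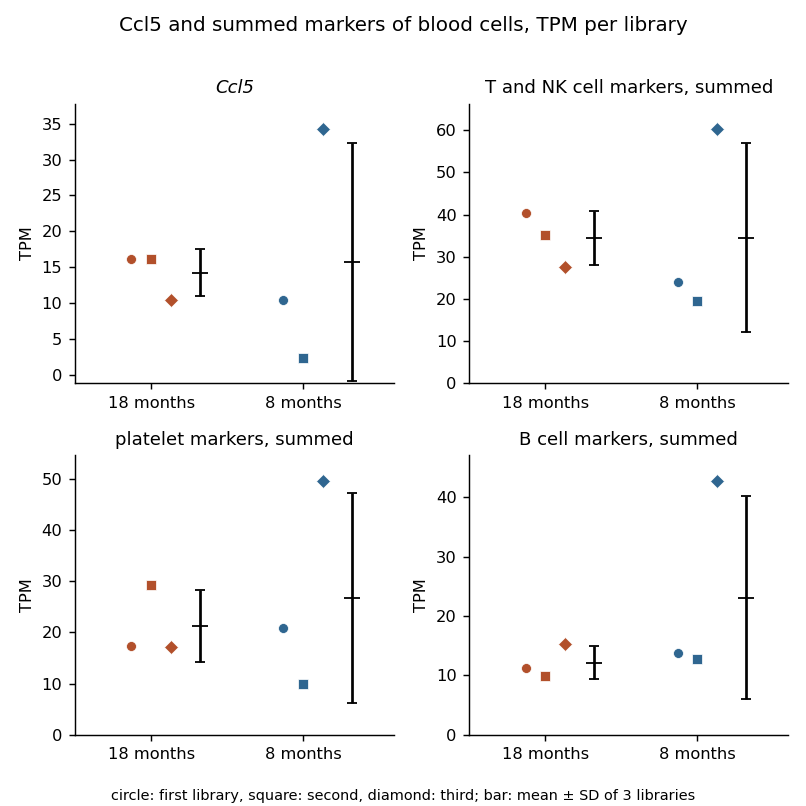
TPM of Ccl5 and the summed TPM of T and NK cell, platelet and B cell markers in each library (points), with 18 months left of 8 months and the mean ± SD of 3 libraries as a bar. In each panel the third 8-month library is the highest of the 6, at 34.3 TPM for Ccl5 and 60.2 TPM for the T and NK cell markers.

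Genes with the most similar profiles over the 6 libraries were found by the root mean squared difference of log2(TPM + 1), each gene centred on its own mean, for the 4 tested members that spanned at least 1 on that scale. The nearest to Ccl5 were Ppbp, a chemokine gene of platelets, at 0.43, Cd52, a surface protein of lymphocytes, at 0.47 and Snord118 at 0.48, where the deviation of Ccl5 from its own mean was 1.02. The nearest to Cxcl10 were Scgb3a2, a secretory protein of airway cells, at 0.17, Plekhb1 at 0.19 and Snx10 at 0.19, against a deviation of 0.46 for Cxcl10. Those nearest to Ccl2 were Snrpn at 0.15, Ndufb2 at 0.16 and Pde8b at 0.18, against a deviation of 0.47, and those nearest to Cxcl2 were Vps16 at 0.16, Kat8 at 0.16 and Snord53 at 0.19, against 0.46. These names were picked as the nearest among 9512 or 9513 candidates and are a description.

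Between Ccl7 and Ccl5, 1.48 Mb apart, lie Ccl11, Ccl12, Ccl8 and Ccl1. Ccl8 stood at 0.637, 2.12 and 0.653 TPM in 18-month libraries and was listed at 0 in all 3 8-month libraries, the opposite direction to its neighbours Ccl2 and Ccl7. Ccl11, a chemokine for eosinophils, averaged 0.25 ± 0.0834 TPM in older and 0.618 ± 0.262 TPM in younger libraries. Ccl12 was listed at 0 in 5 of 6 libraries, as was Ccl1.

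Other chemokine genes were read from lists of 11 CXC, CX3C and XC genes and 17 CC genes. Of these 6 and 7 were tested, 0 passed in either direction, and the median log2 differences were -0.043 and -0.22. Cx3cl1, a chemokine tethered to the membrane like Cxcl16, stood at 35.95, 27.1 and 29.5 TPM in the 18-month libraries, against 45.4, 51.2 and 56.6 TPM in the 8-month libraries. It lay lower in each older library (log2 difference -0.71, SE 0.14, limma adjusted p = 0.13). Ccl21a, a ligand of Ccr7 made by lymphatic vessels, stood at 1.66, 1.66 and 1.39 TPM in the 18-month libraries, against 3.68, 21.9 and 17.8 TPM in the 8-month libraries. The ages did not overlap (log2 difference -2.30, SE 0.54, limma adjusted p = 0.16), and near-identical copies of this gene make its value uncertain. Ccl6, a chemokine of macrophages, stood at 70.8, 147 and 55.3 TPM in 18-month and 10.6, 12.8 and 74.9 TPM in 8-month libraries, with overlap through the third 8-month library. Its log2 difference was 1.88 (limma adjusted p = 0.31), and 2.74 without that library. Ccl9 stood at 2.101, 2.24 and 1.86 TPM in 18-month and 1.21, 1.04 and 1.73 TPM in 8-month libraries, without overlap (limma adjusted p = 0.42). Ccl4, a chemokine of macrophages and T cells, stood at 1.13, 0.0172 and 5.07 TPM in 18-month and 6.84, 3.07 and 10.6 TPM in 8-month libraries, with overlap (limma adjusted p = 0.34). Cxcl15, a chemokine of lung epithelium, averaged 36.8 ± 12.8 TPM in older and 44.1 ± 21.7 TPM in younger libraries, and Cxcl17, a mucosal chemokine, averaged 9.72 ± 2.45 TPM and 7.33 ± 0.402 TPM in the same order.

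Signalling receptors for chemokines were scarce, since 13 of the 18 listed fell below the filter and the highest value in any library was 14.3 TPM. Of the 5 tested, 0 passed, and Ccr9 and Ccr4 averaged 1.82 ± 0.247 and 1.42 ± 0.379 TPM in older and 2.14 ± 0.343 and 1.31 ± 0.314 TPM in younger libraries. All 5 atypical receptors were tested, 0 passed, and the median log2 difference was -0.58. Besides Ackr2 and Ackr3, Ccrl2, which holds the attractant chemerin at the cell surface, stood at 211, 267 and 262 TPM in the 18-month libraries, against 208, 208 and 168 TPM in the 8-month libraries. Its older libraries all lay above the younger ones (log2 difference 0.34, limma adjusted p = 0.33). Ackr1, the chemokine carrier of venules, stood at 2.05, 1.51 and 1.56 TPM in 18-month and 1.37, 5.62 and 4.06 TPM in 8-month libraries, with overlap. The 14 genes that process chemokines or build their heparan sulfate anchors were all tested, 0 passed, and the median log2 difference was -0.17. Ext2, an enzyme of heparan sulfate chains, ranged from 1.203 to 26.9 TPM over the 6 libraries. Sdc2 and Sdc3, proteoglycans that carry such chains, averaged 3.28 ± 0.267 and 35.8 ± 1.92 TPM in older and 4.51 ± 1.07 and 40.4 ± 1.13 TPM in younger libraries.

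**Figure D5:**
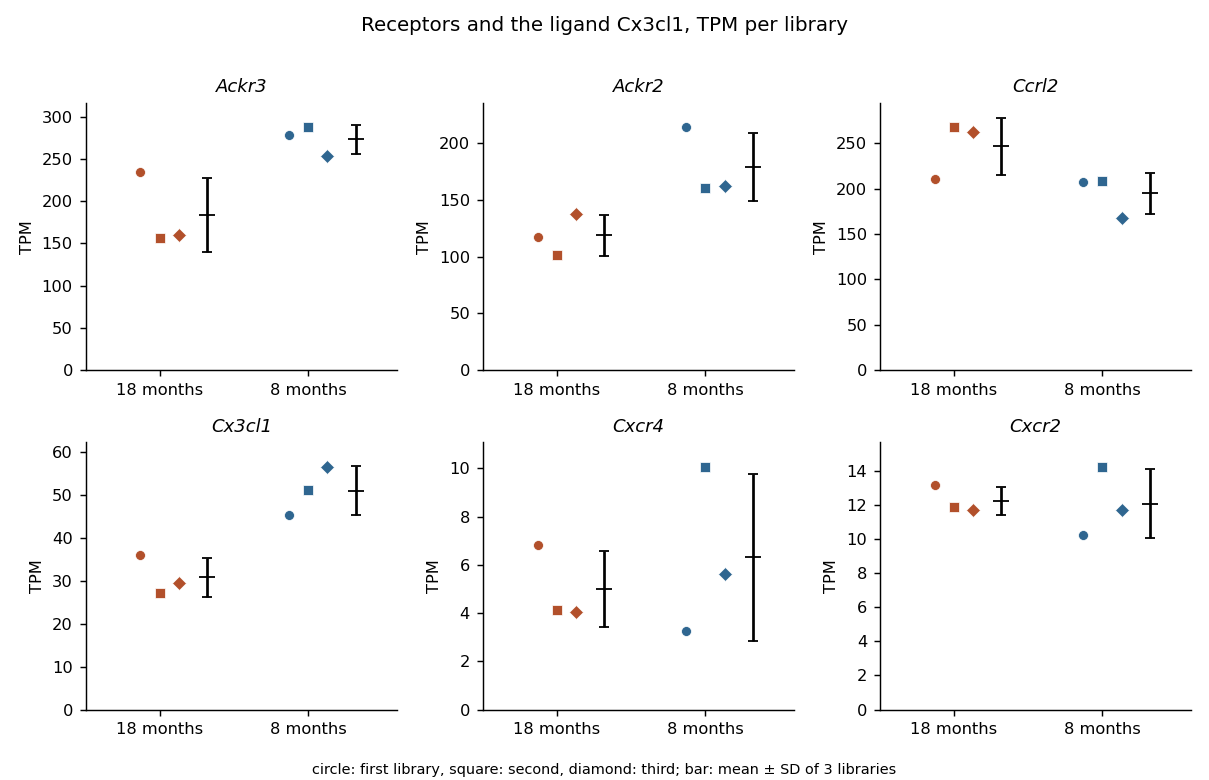
TPM of 5 receptors and the tethered ligand Cx3cl1 in each library (points; vertical axes differ), with 18 months left of 8 months and the mean ± SD of 3 libraries as a bar. Ackr3, Ackr2 and Cx3cl1 lie below the 8-month libraries in each 18-month library and Ccrl2 above, while Cxcr4 and Cxcr2 overlap.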

How the data were processed

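RNA of sorted lung endothelial cells was sequenced in 6 libraries, 3 from mice of 18 months and 3 of 8 months, made with a SMARTer Ultra Low kit per the labels' protocols. The authors deposited TPM for 24520 Ensembl genes, made with kallisto and mm10 per the submitters' processing notes (version and transcript set not given in the sources used here). TPM keep no depth, so precision rests on the spread of 3 libraries. GENCODE M21 (GRCm38) gave positions, 31-base sequences and symbols for 24298 of the identifiers.

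Log2(TPM + 1) of genes whose mean TPM reached 1 was tested with limma 3.58.1 in R 4.3.3 (moderated, with an intensity trend, age alone in the model, two-sided, Benjamini-Hochberg adjustment over all 12748 genes, threshold 0.05, 95% intervals) and checked on simulated data. Members, lists and tests were chosen with earlier results of these data known. Named were all members, chemokine genes lying between members of a cluster, of each pathway list the 4 tested genes with the smallest unadjusted p, and the 3 genes of at least 5 TPM nearest in profile to a member. Cxcr2, Cxcr3, Cxcr6, Ccr2, Ccr3, Art3, Zmynd15, Cxcl3, Adam10, Col1a1, Ly6g, S100a8, S100a9, Ngp, C1qa, Flt3, Csf1r, Gja4, Fbln5, Plvap, Cd3e, Cd3d and Cd2 were named after their values were seen. Alternatives were pseudocounts of 0.1 and 0.5, no filter, a mean of 5 TPM, median-of-ratios, quantile and equal-sum scaling, no trend, weights per library, a block for the replicate number and each library left out. Adjusting for GC content and transcript length (loess, span 0.75), also with the block, was chosen after seeing the data.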

Additional observations from a re-analysis of the deposited data

How the results depend on the processing

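In all 18 alternatives 0 chemokine members passed, with a smallest member adjusted p of 0.070 (limma with library weights). Log2 differences of Cxcl2, Cxcl10, Cxcl12, Cxcl16 and Ccl2 kept their sign in every alternative run. The number of genes past the threshold was 3, against 0 with no filter on low values (limma; 669 higher and 1534 lower at an unadjusted p under 0.05), 16 with quantile normalization, 94 with library weights and 0 to 2 with 1 library left out. With the replicate block it was 0 (limma; 422 higher and 1023 lower at an unadjusted p under 0.05), and 0 with the block and the GC and length correction together (797 higher and 683 lower). Same-numbered libraries did not deviate together (correlations across genes of -0.012, -0.09 and 0.057). The numbers thus gave no sign of a pairing, which 3 libraries per age cannot exclude. Without adjustment the split was 440 higher and 1274 lower at p under 0.05, against 741 higher and 894 lower with median-of-ratios scaling, 751 higher and 979 lower with quantile normalization and 862 higher and 711 lower with the GC and length correction.

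Signs turned for differences near 0 and for Ccl5, and the cause was not tested. With library weights the log2 difference was -0.074 for Cxcl1, -0.032 for Ccr4 and -0.019 for Cxcr2. With the GC and length correction, with or without the block, it was 0.087 for Sdc3 and 0.12 for Zmynd15. With 1 library left out, Cxcl1 ran from -0.15 to 0.10, Ccl5 from -0.42 to 1.27, Cxcl15 from -0.47 to 0.16, Cxcr4 from -0.55 to 0.15, Ccr4 from -0.055 to 0.18, Cxcr2 from -0.072 to 0.15 and Zmynd15 from -0.49 to 0.19. Cx3cl1 and Ubd passed with library weights (limma adjusted p = 0.042 and 0.035), and Ccl21a without the first 8-month library (limma adjusted p = 0.014). With 3 libraries per age and no read depth, the counting error of members near or under 1 TPM is unknown.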
